A study of Homo sapiens with 18 samples.

Results

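JUN, FOS and DUSP8 are 3 genes of stress and growth-factor signalling, followed here across human acute myeloid leukaemia cells with and without a CRISPR knockout of caspase-2, a cysteine protease encoded by CASP2. They were taken by gene symbol from a deposited RNA sequencing table, where they account for 3 of 5069 distinct sets of values, and were chosen by their TPM differences between clones and parental cells. The 18 libraries form 6 groups of 3. OCI-AML3, an established line with the cytoplasmic NPM1c+ mutation, is represented by clone 1 and clone 2, both labelled caspase-2 knockout, and by parental cells with intact caspase-2. OCI-AML2, an established line with unmutated NPM1, is represented by a clone 1 and a clone 2 of its own, labelled the same way, and by its parental cells. Each knockout group is thus 1 clone, all cells were untreated, and nothing in the labels says that the libraries of a group came from separate cultures, so the spread between them may be technical.

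JUN and FOS encode the founding subunits of AP-1, a transcription factor that binds DNA as a dimer of basic leucine zipper proteins. JUN proteins pair with one another or with FOS proteins, whereas FOS proteins need a JUN partner to form a stable dimer. Both genes are immediate early genes, which respond to MAP kinase signals before any new protein is made, and in myeloid cells AP-1 takes part in monocyte differentiation. DUSP8 encodes a dual-specificity phosphatase that removes the activating phosphates from the MAP kinases JNK and p38, and JNK is the kinase that phosphorylates JUN.

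Values are TPM, transcript abundances that correct for transcript length and library size, so levels of different genes can be set side by side. JUN stood in 2 identical lines and FOS in 2 identical lines. DUSP8 stood in 2 identical lines and in a further line under the symbol CAMTA2, which repeated its values with those of OCI-AML3 clone 1 in rotated order and was dropped. The table itself holds genes selected for a change. The levels of the members and their differences between clones and parental cells, or between the lines, are therefore given as a description without a test.

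CASP2 mRNA, the target of the editing, stood at 9.72% of the parental level in clone 1 and 12.3% in clone 2 of OCI-AML2, but at 94.2% and 112% in clone 1 and clone 2 of OCI-AML3. The mRNA level thus gives no check of the OCI-AML3 knockout labels. Of 19 myeloid markers looked for, 7 could be tied to a set of values, and the granule protease genes AZU1 and PRTN3 averaged between 800 and 7481 TPM in every group. Of 14 markers of lymphoid, erythroid, epithelial, stromal and endothelial cells, CD3D alone could be tied to a set. It averaged 1.33 and 1.37 TPM in clone 1 and clone 2 of OCI-AML2 and was listed at 0 in the 4 other groups. The read depth is unknown, because TPM does not keep it.

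The 150 bases before the RefSeq start of each gene are printed 5′ to 3′ because the levels of JUN and DUSP8 ran parallel over the 6 groups and those of FOS did not. The members were chosen by these levels, so this likeness is not independent of the choice. FOSB, a FOS relative described further on, is added because its levels correlated with those of JUN (r = 0.882) and DUSP8 (r = 0.881). It did not fall with them in OCI-AML2 clone 1, where it averaged 1.72 TPM, against 1.69 TPM in parental cells. Capitals mark TGACNTCA, an element bound by AP-1 and CREB family dimers, and TATAAA, the TATA box. The 7-letter AP-1 element TGANTCA was searched too and was not in these windows. Coordinates are of build GRCh38.p14: chr1:58784048-58784197, minus strand, for JUN, chr14:75278678-75278827, plus strand, for FOS, chr11:1572272-1572421, minus strand, for DUSP8, and chr19:45467846-45467995, plus strand, for FOSB.
JUN: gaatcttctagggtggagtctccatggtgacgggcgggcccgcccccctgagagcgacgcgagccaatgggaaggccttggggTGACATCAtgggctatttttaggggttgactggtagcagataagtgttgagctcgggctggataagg
FOS: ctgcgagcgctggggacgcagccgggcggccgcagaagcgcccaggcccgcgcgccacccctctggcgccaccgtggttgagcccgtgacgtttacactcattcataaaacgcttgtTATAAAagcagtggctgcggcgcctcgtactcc
DUSP8: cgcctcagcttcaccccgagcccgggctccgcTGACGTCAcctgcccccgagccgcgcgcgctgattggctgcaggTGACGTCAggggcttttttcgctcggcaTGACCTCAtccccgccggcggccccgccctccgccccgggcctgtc
FOSB: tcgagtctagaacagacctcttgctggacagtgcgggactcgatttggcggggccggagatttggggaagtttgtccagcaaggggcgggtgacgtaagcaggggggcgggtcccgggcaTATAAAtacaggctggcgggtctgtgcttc

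On either strand, TGACNTCA occurred in the JUN window once, at bases -67 to -60 before the start, where it reads TGACATCA. The DUSP8 window held it 3 times. The copies at -118 to -111 and at -74 to -67 read TGACGTCA, the palindromic cAMP response element, and the copy at -46 to -39 reads TGACCTCA. The FOS and FOSB windows held no match to it. Of the 35116 promoters in the table, 5.39% held TGACNTCA in the same 150 bases, 1.40% held TGACGTCA, which is also a form of TGACNTCA, and 4.17% held TGANTCA. The TATA box stood in the FOS window at -33 to -28 and in the FOSB window at -30 to -25, and in 6.71% of all promoters. A match in these letters is not evidence of binding, and a missing match says nothing about the factor. Only exact matches were marked, and a link between these letters and the levels was not tested.

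JUN mRNA was lower in all 12 clone libraries than in the parental libraries of the same line. In OCI-AML3 its TPM values were 7.67, 6.32 and 7.2 for clone 1 and 8.45, 8.28 and 8.47 for clone 2, against 28.24, 28.54 and 26.5 TPM in parental cells. No clone library came near a parental one, and the means were 25.4% of the parental mean in clone 1 and 30.3% in clone 2. The log2(TPM + 1) differences from parental were -1.84 in clone 1 and -1.61 in clone 2, each with an SE of 0.12. In bulk RNA, fewer expressing cells and less RNA per cell cannot be told apart.

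In OCI-AML2, the JUN values were 6.92, 5.63 and 6.51 TPM for clone 1 and 5.17, 8.18 and 6.65 TPM for clone 2, against 14.84, 13.25 and 12 TPM in parental cells. The clones lay below the parental libraries without overlap, at 47.5% and 49.9% of the parental mean in clone 1 and clone 2. The log2 differences were -0.97 and -0.92 (SE 0.12 each). JUN thus stood at similar levels in the 4 clones, with group means of 7.06 and 8.4 TPM in OCI-AML3 and of 6.35 and 6.67 TPM in OCI-AML2. The parental lines were further apart, with 27.8 ± 1.10 TPM in OCI-AML3 and 13.4 ± 1.42 TPM in OCI-AML2 (SD, n = 3 libraries each), a ratio of 2.08. Ordered by mean, the libraries of the lowest 3 groups, both OCI-AML2 clones and OCI-AML3 clone 1, overlapped with those of their neighbours, and the others were separate.

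DUSP8 had the same order of parental lines as JUN and a deeper reduction in the clones. Its values in OCI-AML3 were 1.38, 1.17 and 1.4 TPM for clone 1 and 1.72, 2.09 and 1.12 TPM for clone 2, against 14.55, 12.67 and 11.48 TPM in parental cells. These clone means were 10.2% and 12.7% of the parental mean, and the log2 differences were -2.58 and -2.41 (SE 0.12 each). Its values in OCI-AML2 were 1.37, 1.52 and 1.08 TPM for clone 1 and 0.76, 0.77 and 0.94 TPM for clone 2, against 4.62, 4.8 and 4.63 TPM in parental cells. Clone 1 was at 28.3% and clone 2 at 17.6% of the parental mean, with log2 differences of -1.29 and -1.64 (SE 0.12 each). No clone library overlapped with a parental one in either line. Since the clone levels lay near 1 TPM, the log2(TPM + 1) scale understates these differences. With a pseudocount of 0.1 they were -3.19 and -2.93 in clone 1 and clone 2 of OCI-AML3, and -1.76 and -2.38 in clone 1 and clone 2 of OCI-AML2. Among parental cells DUSP8 averaged 12.9 ± 1.55 TPM in OCI-AML3 and 4.68 ± 0.101 TPM in OCI-AML2, a ratio of 2.75. In the order of means OCI-AML2 clone 2 was lowest and separate, the other 3 clones overlapped with their neighbours, and the parental groups lay above them. The difference was deeper for DUSP8 than for JUN, as their ratio shows. The ratio of JUN to DUSP8 was 5.37 ± 0.210 and 5.48 ± 1.87 in clone 1 and clone 2 of OCI-AML3, against 2.17 ± 0.198 in parental cells. In OCI-AML2 it was 4.93 ± 1.17 and 8.17 ± 2.13, against 2.86 ± 0.321, and no clone library overlapped with a parental one in either line.

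FOS departed from JUN and DUSP8 in OCI-AML3, where it was higher in the clones. The values there were 34.34, 36.13 and 33.37 TPM for clone 1 and 38.78, 37.23 and 36.32 TPM for clone 2, against 13.3, 12.44 and 11.89 TPM in parental cells. The clone means were 2.76 and 2.98 times the parental mean, with log2 differences of 1.40 and 1.51 (SE 0.10 each). In OCI-AML2, the FOS values were 8.6, 7.54 and 5.93 TPM for clone 1 and 10.94, 11.52 and 10.97 TPM for clone 2, against 14.1, 15.84 and 17.15 TPM in parental cells. The means were 46.9% and 71.0% of the parental mean in clone 1 and clone 2, with log2 differences of -1.01 and -0.46 (SE 0.10 each). Clone and parental libraries did not overlap in either line, and all 6 groups were separate from their neighbours in the order of means. The parental lines were closer for FOS than for the other members, with 12.5 ± 0.711 TPM in OCI-AML3 and 15.7 ± 1.53 TPM in OCI-AML2.

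**Figure D1:**
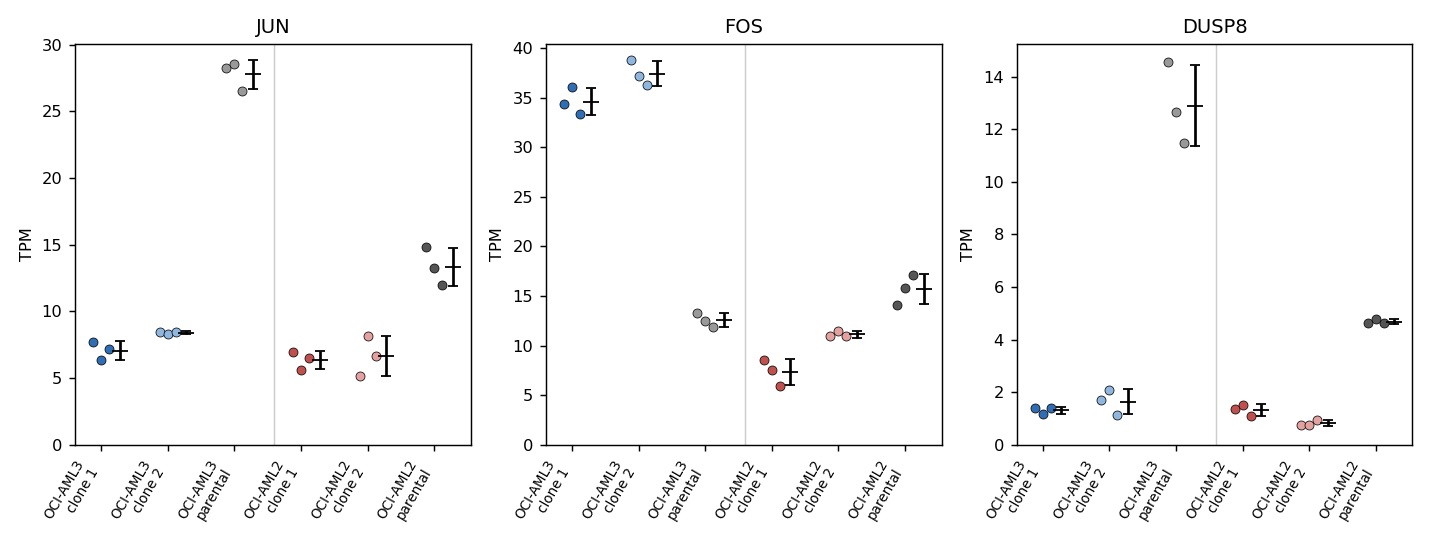
TPM of JUN, FOS and DUSP8 in each library, by group, with the mean ± SD of the 3 libraries beside the points; each vertical axis starts at 0. JUN and DUSP8 lie below the parental libraries in all 4 clones, whereas FOS lies above them in the OCI-AML3 clones (33.37 to 38.78 TPM) and below them in the OCI-AML2 clones (5.93 to 11.52 TPM).

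Called at an adjusted p of 0.05 in both clones in the same direction, 1 of the 3 members (FOS) was higher and 2 were lower in OCI-AML3, where 28.7% of all tested sets were called higher and 38.3% lower. In OCI-AML2 all 3 were lower, against 14.6% of tested sets called lower and 23.8% higher. The same members had clone libraries that did not overlap with the parental ones, as did 29.3% of tested sets above and 38.8% below the parental libraries in OCI-AML3, and 25.1% above and 15.7% below in OCI-AML2. Between the parental lines JUN and DUSP8 were higher and FOS lower in OCI-AML3, where 47.2% of tested sets were called higher and 43.4% lower than in OCI-AML2. Since these contrasts were known when the members were chosen, nothing is read from the counts. The median log2 change over all 4413 tested sets was -0.06 in OCI-AML3 and 0.06 in OCI-AML2 for the mean of both clones.

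With FOS higher and JUN lower, the balance of the FOS and JUN messages in the OCI-AML3 clones differed from parental cells far more than their sum did. The ratio of FOS TPM to JUN TPM within a library was 4.94 ± 0.675 in clone 1 and 4.46 ± 0.154 in clone 2, against 0.452 ± 0.0178 in parental cells (SD, n = 3). JUN and FOS together came to 41.7 ± 0.983 TPM in clone 1 and 45.8 ± 1.25 TPM in clone 2, against 40.3 ± 1.68 TPM in parental cells. The sums of clone 1 overlapped with those of parental cells, and those of clone 2 lay above them. This is not the sum of all AP-1 messages, because it leaves out FOSB, described further on, and other AP-1 dimer genes. Of 17 such genes listed besides JUN and FOS, only 2 could be tied to a set of values. FOSB averaged 1.52 and 2.58 TPM in clone 1 and clone 2, against 18.8 TPM in parental cells.

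In OCI-AML2 the sum differed and the ratio less so. JUN and FOS together came to 13.7 ± 1.61 TPM in clone 1 and 17.8 ± 1.80 TPM in clone 2, against 29.1 ± 0.108 TPM in parental cells, with no overlap. The ratio of FOS to JUN was 1.16 ± 0.225 in clone 1 and 1.73 ± 0.360 in clone 2, against 1.19 ± 0.239 in parental cells. The libraries of both clones overlapped with the parental ones in this ratio.

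**Figure D2:**
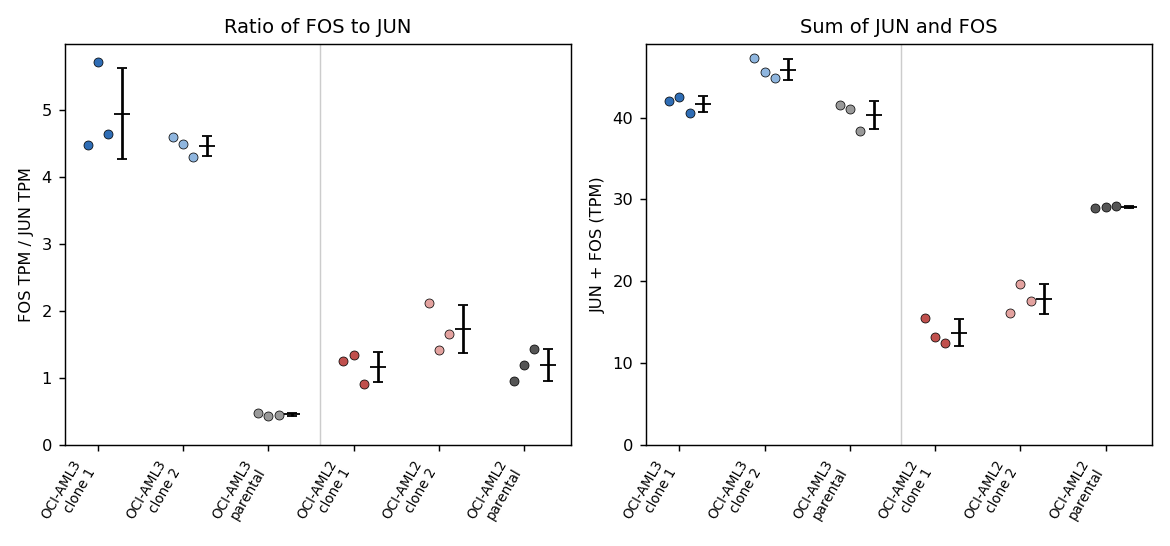
Ratio of FOS to JUN (left) and their sum in TPM (right) in each library, by group, with the mean ± SD of the 3 libraries. In OCI-AML3 the ratio is 4.29 to 5.72 in the clones and 0.436 to 0.471 in parental cells. The sums in that line lie between 38.4 and 47.2 TPM. In OCI-AML2 the sums are 12.4 to 19.7 TPM in the clones and 28.9 to 29.2 TPM in parental cells.

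The contrast between clones of one line is not the one the members were chosen by, although its results over the table were known too. It was tested with limma on log2(TPM + 1), with Benjamini-Hochberg adjustment over all 4413 sets. In OCI-AML3, none of the 3 members differed between clone 2 and clone 1 by this test. The clone 2 minus clone 1 differences were 0.22 for JUN (SE 0.12, adjusted p = 0.259), 0.11 for FOS (SE 0.10, adjusted p = 0.543) and 0.17 for DUSP8 (SE 0.12, adjusted p = 0.404). Leaving out 1 library at a time, the DUSP8 difference ranged from 0.0533 to 0.325 (adjusted p = 0.901 to 0.0740) and was never called. Over the table, 3.94% of sets were higher and 2.88% lower in clone 2 of that line.

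In OCI-AML2, FOS was higher in clone 2 than in clone 1, with 11.1 ± 0.327 TPM in clone 2 and 7.36 ± 1.34 TPM in clone 1 (difference 0.55, SE 0.10, limma adjusted p = 8.37e-05). All 3 clone 2 libraries lay above all 3 clone 1 libraries. DUSP8 was lower in clone 2, with 0.823 ± 0.101 TPM in clone 2 and 1.32 ± 0.224 TPM in clone 1 (difference -0.35, SE 0.12, limma adjusted p = 0.0175). The DUSP8 call was lost when any 1 of 3 libraries was left out, namely replicate 2 of clone 1 (adjusted p = 0.0783) or replicate 1 (0.0525) or 2 (0.0507) of clone 2. With a pseudocount of 0.1 the DUSP8 difference was -0.62 (adjusted p = 0.00967). JUN averaged 6.67 ± 1.51 TPM in clone 2 and 6.35 ± 0.659 TPM in clone 1 (difference 0.05, SE 0.12, adjusted p = 0.801). In these clones 29.9% of sets were higher and 29% lower in clone 2, so differences between them were common.

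Other AP-1 dimer genes came from a list of 17 besides JUN and FOS, of which 2 could be tied to a set of values. The deposited genes were selected for a change, and the lists were chosen with earlier results known. Adjusted p-values of listed genes against parental cells therefore only set a difference beside the spread of libraries. They are not an error rate. FOSB, a FOS relative that also dimerizes with JUN proteins, fell in OCI-AML3. Its values there were 1.4, 1.42 and 1.73 TPM for clone 1 and 2.84, 2.68 and 2.23 TPM for clone 2, against 20.55, 18.77 and 17.05 TPM in parental cells (log2 differences -2.97 and -2.47, limma adjusted p = 4.13e-15 and 5.50e-14). FOS and FOSB thus went opposite ways in this line. The FOSB values also stood under the symbol FBXO43, with those of OCI-AML3 clone 1 in rotated order. The name FOSB rests on that order. FOSB made up 3.52% and 5.33% of the summed TPM of JUN, FOS and FOSB in clone 1 and clone 2, against 31.7% in parental cells, and FOS 80.1% and 77.3% against 21.2%. In OCI-AML2, FOSB averaged 1.72 ± 0.116 TPM in clone 1, 0.780 ± 0.139 TPM in clone 2 and 1.69 ± 0.0764 TPM in parental cells. It was lower in clone 2 (adjusted p = 1.36e-05) and did not pass in clone 1 (adjusted p = 0.947).

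MAFK, a small basic leucine zipper protein without an activation domain, rose in both lines, to 19.7 ± 1.65 and 19.6 ± 1.01 TPM in the OCI-AML3 clones, against 7.61 ± 0.243 TPM in parental cells. In OCI-AML2 it reached 27.2 ± 1.31 and 38.2 ± 3.86 TPM in clone 1 and clone 2, against 18.5 ± 1.47 TPM in parental cells. Of FOSB and MAFK, 1 rose and 1 fell in OCI-AML3, and 1 rose and 0 fell in OCI-AML2.

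Of the other 9 MAP kinase phosphatases listed, 4 had values that could be tied to them. DUSP6, which acts on ERK and is itself induced by ERK signalling, rose in OCI-AML3 to 21.3 ± 0.300 and 20.8 ± 1.95 TPM in clone 1 and clone 2, against 3.44 ± 0.736 TPM in parental cells (log2 differences 2.34 and 2.30, limma adjusted p of 3.12e-13 and 3.86e-13). In OCI-AML2 its levels were 36.6 ± 2.99 TPM in clone 1, 45.3 ± 1.78 TPM in clone 2 and 31.5 ± 1.32 TPM in parental cells, and only clone 2 passed (adjusted p = 0.000155, against 0.0766 for clone 1). DUSP10, which like DUSP8 acts on JNK and p38, rose in OCI-AML3 to 9.71 ± 0.630 and 9.20 ± 0.253 TPM, against 4.89 ± 0.276 TPM in parental cells. In OCI-AML2 it fell to 13.7 ± 1.66 and 11.7 ± 1.14 TPM, against 17.0 ± 0.338 TPM in parental cells (adjusted p = 0.00651 in clone 1 and 4.01e-05 in clone 2).

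DUSP16, another phosphatase of JNK and p38, fell in OCI-AML3 to 1.47 ± 0.0643 and 1.25 ± 0.174 TPM, against 5.00 ± 0.0643 TPM in parental cells. It averaged 18.3 ± 1.16 TPM in clone 1, 13.7 ± 0.178 TPM in clone 2 and 15.4 ± 0.792 TPM in parental cells of OCI-AML2, where clone 1 rose (adjusted p = 0.00961) and clone 2 did not pass (adjusted p = 0.0676). DUSP9, which acts mainly on ERK, fell in OCI-AML3 to 0.310 ± 0.0458 and 0.353 ± 0.284 TPM, against 7.98 ± 0.582 TPM in parental cells. It averaged 0.0167 TPM in clone 1 of OCI-AML2 and was listed at 0 in clone 2 and in parental cells of that line. Of the 4 genes, 2 rose and 2 fell in OCI-AML3, and 0 rose and 1 fell in OCI-AML2. DUSP9 reached 1 TPM in OCI-AML3 parental cells alone, so only that group took it past the 1 TPM filter. Its call as lower was fixed by that filter and is no support.

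**Figure D3:**
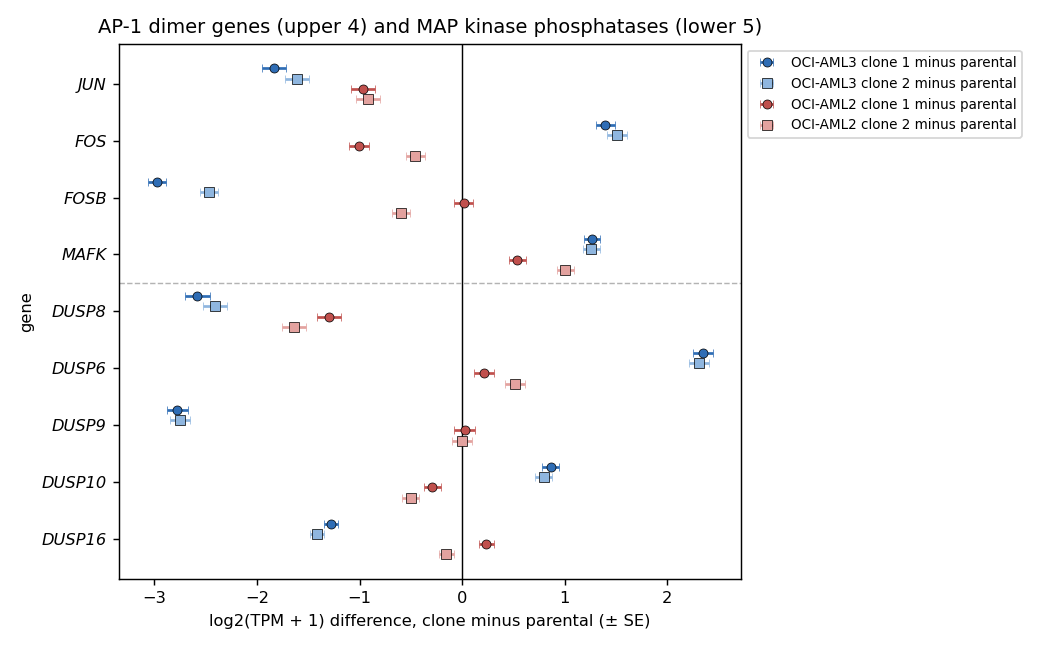
Difference of log2(TPM + 1) between each clone and the parental cells of its line, with SE, for 4 AP-1 dimer genes and 5 MAP kinase phosphatases. JUN and DUSP8 lie left of 0 in all 4 clones, FOS lies right of 0 in the OCI-AML3 clones only, and FOSB and DUSP9 lie far left in the OCI-AML3 clones.

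Among MAP kinases and their upstream kinases and scaffolds, 8 of 50 listed genes were tested, with 3 higher and 3 lower in OCI-AML3 and 1 higher and 2 lower in OCI-AML2. MAPK8IP1, a scaffold that brings JNK together with its activating kinases, rose in OCI-AML3 to 12.4 ± 0.830 and 10.4 ± 0.768 TPM, against 5.17 ± 0.300 TPM in parental cells. MAPK8IP2, a related scaffold, fell there to 1.34 ± 0.133 and 1.55 ± 0.310 TPM, against 3.78 ± 0.320 TPM in parental cells. MAPK11, which encodes p38β, rose in OCI-AML2 to 5.52 ± 0.331 and 5.57 ± 1.05 TPM, against 2.29 ± 0.178 TPM in parental cells. BRAF, a kinase at the head of the ERK cascade fell in OCI-AML2 to 5.12 ± 0.456 and 5.78 ± 0.511 TPM, against 12.04 ± 0.679 TPM in parental cells, and was higher in the OCI-AML3 clones (adjusted p = 0.033 and 0.0181).

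Of 27 other immediate early genes, 7 were tested, and 4 rose and 3 fell in OCI-AML3. IER3, an early gene induced by stress and growth factors, rose there to 82.4 ± 3.43 and 83.0 ± 5.53 TPM, against 18.3 ± 2.14 TPM in parental cells, and ZFP36L1, which promotes decay of AU-rich mRNAs, rose to 30.4 ± 0.257 and 38.5 ± 2.21 TPM, against 9.05 ± 0.567 TPM. EGR4, a zinc finger transcription factor, fell to 3.53 ± 0.607 and 4.24 ± 0.909 TPM, against 18.3 ± 1.42 TPM in parental cells. In OCI-AML2, 2 rose and 1 fell. BTG2, an antiproliferative gene, reached 17.8 ± 1.70 and 20.05 ± 0.866 TPM there, against 6.84 ± 1.09 TPM in parental cells.

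Of 13 genes induced by ERK that feed back on or report its activity, 5 were tested, and 4 rose and 1 fell in OCI-AML3. SPRED3, an inhibitor of the RAS to ERK pathway, rose to 8.87 ± 0.822 and 11.6 ± 0.772 TPM, against 1.36 ± 0.280 TPM in parental cells. SPRY1, another such inhibitor, rose to 3.07 ± 0.376 and 3.44 ± 0.602 TPM, against 0.837 ± 0.133 TPM in parental cells, and PHLDA1 to 7.83 ± 0.478 and 7.01 ± 0.331 TPM, against 2.48 ± 0.322 TPM. ETV4, a transcription factor of the ETS family, fell to 2.52 ± 0.544 and 3.48 ± 0.710 TPM, against 17.2 ± 1.09 TPM in parental cells. In OCI-AML2, 0 rose and 1, SPRED3, fell.

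Of 21 genes with described AP-1 control, 5 were tested, and 3 rose and 2 fell in OCI-AML3, and 3 rose and 1 fell in OCI-AML2. TNF, an inflammatory cytokine, rose in OCI-AML3 to 161 ± 5.71 and 196 ± 9.52 TPM, against 77.5 ± 2.01 TPM in parental cells. In OCI-AML2 it rose to 49.0 ± 3.73 and 59.9 ± 3.52 TPM, against 32.3 ± 0.155 TPM in parental cells. MMP9, a gelatinase, rose in both lines, to 16.6 and 22.7 TPM in the OCI-AML3 clones, against 4.79 TPM in parental cells, and to 3.42 and 2.31 TPM in the OCI-AML2 clones, against 0.0633 TPM. CCL2, a monocyte chemoattractant, rose to 49.7 and 51.1 TPM in the OCI-AML3 clones, against 13.1 TPM in parental cells, and to 18.04 and 145.7 TPM in the OCI-AML2 clones, against 0.553 TPM. ITGAX, an integrin chain of myeloid cells, fell in OCI-AML3 to 2.65 ± 0.265 and 3.08 ± 0.291 TPM, against 8.97 ± 1.00 TPM in parental cells. In OCI-AML2 it stood at 25.4 ± 1.01 TPM in clone 1, 2.36 ± 0.0153 TPM in clone 2 and 27.3 ± 1.23 TPM in parental cells. It was not called there, as clone 1 did not pass (limma adjusted p = 0.368). The gene that fell in OCI-AML2 was PLAU, with log2 differences of -0.67 in clone 1 and -0.83 in clone 2. PLAU fell in OCI-AML3 as well, by -1.01 in clone 1 and -0.79 in clone 2.

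Over these 6 lists without the members, 31 genes were tested, of which 17 rose and 12 fell in OCI-AML3 (median log2 change 0.52) and 7 rose and 6 fell in OCI-AML2 (median -0.03). All tested sets with a settled symbol, 2084 in number, had 754 higher and 1023 lower in OCI-AML3 (median -0.264). In OCI-AML2, 594 of them were higher and 360 lower (median 0.068). As 307 of the 2084 were not called in OCI-AML3, a call was common there, and nothing is read from the counts of the lists.

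**Figure D4:**
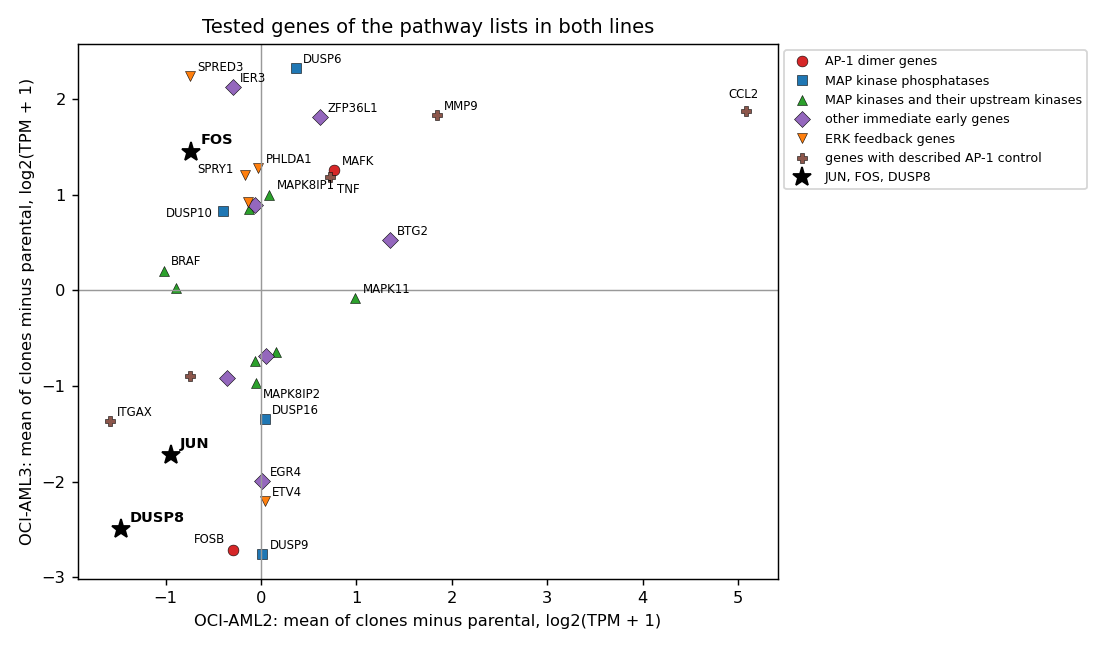
Mean change of the clones from parental cells, as a difference of log2(TPM + 1), in OCI-AML2 (horizontal) and OCI-AML3 (vertical) for the 31 tested genes of the 6 lists, with JUN, FOS and DUSP8 as stars. JUN and DUSP8 lie in the lower left, where both lines are lower in the clones, and FOS in the upper left with SPRED3, IER3, DUSP10 and BRAF among others.

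Between the lines, the change from parental cells to clones was more negative in OCI-AML3 for JUN by 0.78 (difference of log2 changes -0.78, SE 0.14) and for DUSP8 (-1.03, SE 0.14), and more positive for FOS (2.18, SE 0.12). In this contrast 81.7% of all tested sets were called in either direction, and nothing is read from the members' values. Rescaling the libraries by medians of ratios shifted all tested sets by a median of 0.17 in this contrast, and gave -0.59 for JUN, -0.86 for DUSP8 and 2.37 for FOS. No direction changed.

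The genes whose levels resembled each member were ranked by Pearson correlation of log2(TPM + 1) over the 18 libraries, among the other 2083 tested genes with a settled symbol. For JUN the first was DUSP8 (r = 0.969), and for DUSP8 the first was JUN. FSD1 and ZKSCAN2 completed the first 3 of both, with r = 0.963 and 0.937 for JUN and 0.958 and 0.968 for DUSP8. FSD1 averaged 0.270 and 0.343 TPM in clone 1 and clone 2 of OCI-AML3, against 13.3 ± 0.834 TPM in parental cells. In OCI-AML2 it was listed at 0 in clone 1 and averaged 0.02 TPM in clone 2, against 1.23 TPM in parental cells. FSD1 reached 1 TPM in parental libraries alone, so only these took it past the 1 TPM filter. Its lower level in the clones was fixed by that filter. ZKSCAN2, a zinc finger gene, averaged 1.65 and 1.73 TPM in the OCI-AML3 clones, against 4.59 ± 0.301 TPM in parental cells. For FOS the first 3 were KCTD12 (r = 0.979), OTULIN, a deubiquitinase of linear ubiquitin chains (r = 0.977), and SPOCK1 (r = 0.960). KCTD12 averaged 40.3 and 36.1 TPM in the OCI-AML3 clones, against 12.1 ± 1.53 TPM in parental cells. Between FOS and JUN the correlation was -0.101, and between FOS and DUSP8 it was -0.142. FOSB correlated with JUN at 0.882 and with DUSP8 at 0.881. It averaged 18.8 TPM in OCI-AML3 parental cells and between 0.780 and 2.58 TPM in the other groups. These correlations describe 6 groups of 3 libraries rather than 18 independent conditions. The differences between clones and parental cells, by which the members were chosen, enter them too. The mutual first rank of JUN and DUSP8 is therefore not independent of that choice.

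Myeloid markers moved beside the members. Of the 7 tested, 3 rose and 3 fell in OCI-AML3, and 2 rose and 2 fell in OCI-AML2. CD14, a monocyte receptor, averaged 42.1 ± 1.30 and 50.2 ± 2.81 TPM in the OCI-AML3 clones, against 0.813 ± 0.440 TPM in parental cells, and 3.63 ± 0.0656 and 3.09 ± 0.347 TPM in the OCI-AML2 clones, against 6.44 ± 0.945 TPM in parental cells. FCGR1A, an Fc receptor, stood at 30.2 ± 3.68 and 28.3 ± 0.959 TPM against 91.5 ± 5.86 TPM in OCI-AML3 and at 68.02 ± 3.92 and 53.4 ± 6.30 TPM against 133 ± 4.28 TPM in OCI-AML2. The granule protease gene PRTN3 averaged 1611 and 2193 TPM in the OCI-AML3 clones, against 7481 TPM in parental cells, and 1666 and 799.6 TPM in clone 1 and clone 2 of OCI-AML2, against 1110 TPM. HOXA9, a homeobox gene of immature myeloid cells, was higher in the clones of both lines, at 118 and 123 TPM against 82.5 TPM in OCI-AML3 and at 133 and 166 TPM against 59.0 TPM in OCI-AML2. ITGAM, an integrin chain of mature myeloid cells, averaged 0.02 and 0.0533 TPM against 0.200 TPM in OCI-AML3, and 1.39 and 1.38 TPM against 0.283 TPM in OCI-AML2. ITGAM reached 1 TPM in the OCI-AML2 clones alone, so only those groups took it past the 1 TPM filter. Its call as higher there was fixed by that filter, and its OCI-AML3 levels were too low to weigh. ANPEP, a surface aminopeptidase, averaged 58.7 and 67.0 TPM against 29.9 TPM in OCI-AML3 and under 1 TPM in every OCI-AML2 group. AZU1 averaged 1371 and 1575 TPM against 1403 TPM in OCI-AML3, and 6751 and 2386 TPM against 2079 TPM in OCI-AML2. The markers thus shared no single direction, and their part in the levels of the members was not tested.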

How the data were processed

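Per the file headers, the authors deposited 1 table of TPM for each library. Which aligner, counter, build and annotation they used is not given in the sources used here. Its 6999 lines hold 5069 distinct sets of 18 values and are selected for change; library sums over the sets run between 170140 and 199403 TPM, and the number of value columns without a sample was 0. Each set was counted once. A symbol was settled for 2320 sets: 413 repeated under 1 symbol, 1234 by the replicate order of OCI-AML3 clone 1 and 673 in a single line with a parental log2 ratio under 0.6. Groups came from the titles.

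limma 3.58.1 (R 4.3.3) was run on log2(TPM + 1), with 1 mean per group over 18 libraries and an intensity trend, for the 4413 sets reaching 1 TPM in 3 or more libraries; all 3 members passed. P-values were two-sided with Benjamini-Hochberg adjustment, threshold 0.05, and a listed gene was called in a line only if both clones passed in 1 direction. The fit was tested on simulated data. Members and lists were chosen with earlier results of these data known. Named were the members, every tested AP-1 dimer gene (apart from 1 that is not reported here and was left out of its list) and MAP kinase phosphatase, and the 4 genes of each other list with the largest change in any clone, and the 3 genes most correlated with each member. PLAU was named besides, to show which gene of its list fell in both lines. RefSeq promoters matched all 3 members. The table pairs some values with more than 1 symbol, so unsettled sets entered the fit unnamed. Alternatives covered the pseudocount, the filter, scaling, the libraries in the fit, a replicate block, the trend, gene names and leaving out each library.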

Additional observations from a re-analysis of the deposited data

Results flagged for a closer look

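FOS was picked out because every clone library lay above the parental libraries in OCI-AML3 and below them in OCI-AML2; its change differed by 2.18 on the log2 scale between OCI-AML3 and OCI-AML2, a difference that was not tested because the gene was chosen with these results known. The same opposite pattern without overlap held for 4 named genes of the lists other than the marker lists. Their differences, OCI-AML3 change minus OCI-AML2 change, were 2.42 for IER3, 2.99 for SPRED3, 1.23 for DUSP10 and 1.22 for BRAF. These are singled out by that pattern, so the differences are given without a test. Genes named outside these lists had the pattern too, namely the myeloid marker CD14, and OTULIN and SPOCK1, which were named for their correlation with FOS. How many of all tested sets had it was not counted, so the pattern is not shown to be particular to FOS or to these lists.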

How the results depend on the processing

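No alternative turned the direction of a member's difference between clones and parental cells or between the lines. With a pseudocount of 0.1, DUSP8 moved to -1.76 and -2.38 in clone 1 and clone 2 of OCI-AML2, -3.19 and -2.93 in those of OCI-AML3 and 1.44 between the parental lines, and FOS to 2.31 (2.305) for the difference between lines. Scaling by medians of ratios shifted all sets by 0.11 and 0.13 in clone 1 and clone 2 of OCI-AML3; it gave 1.65 for FOS in clone 2 there, and -0.59, 2.37 and -0.86 for the differences between lines of JUN, FOS and DUSP8. Leaving out 1 library at a time, FOS in OCI-AML2 clone 1 ranged from -1.11 to -0.88 and DUSP8 in OCI-AML3 clone 2 from -2.53 to -2.26. Between OCI-AML2 clones, DUSP8 ranged from -0.42 to -0.29 in these fits and was -0.62 with a pseudocount of 0.1 (adjusted p over all 26 settings 0.00502 to 0.0783, called in 23) and JUN, never called, from -0.0941 to 0.193 (below 0 without replicate 2 of clone 1, -0.0274, or of clone 2); FOS was called in all 26 (0.00659 at most). With symbols as printed, the listed genes called were 27 higher and 25 lower in OCI-AML3 and 13 higher and 10 lower in OCI-AML2, against 17, 12, 7 and 6 with settled symbols. Replicate numbers do not pair the libraries: of 18 same-numbered pairs, 2 correlated above 0.1 (range -0.343 to 0.177). With the replicate block the FOS difference between OCI-AML2 clones stayed at 0.55 (adjusted p = 0.000157) and no call changed. Without depth, counting error is unknown, which matters most for DUSP8 near 1 TPM.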
